A study of Mus musculus with 6 samples.

Results

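Voltage-gated sodium and calcium channels of the lumbar spinal cord were examined here as a set of 41 subunit genes among the 52513 genes of the table. They were taken by symbol alone: the sodium channel pore and beta subunits (Scn followed by a number and a or b), the sodium leak channel Nalcn, and the calcium channel pore (Cacna1), alpha2delta (Cacna2d), beta (Cacnb) and gamma (Cacng) subunits. Wild-type mice supplied the tissue, lumbar cord L4 to L5, after intrathecal saline (3 libraries) or intrathecal morphine (3 libraries) over 7 days, morphine at 10 µg in 10 µL. Library titles number the replicates 1 to 3, but no label says that they are separate animals, so p-values describe the spread between these libraries. The descriptions attach a run of numbers to each library, whose meaning the sources used here do not state. Strain, sex and age were not stated in them.

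Sodium channel pore subunits open on depolarization and carry the upstroke of the action potential, and single-pass beta subunits tune their gating and placement. Calcium channels turn depolarization into calcium entry: the P/Q-, N- and R-type pores trigger transmitter release, L-type pores shape motor neuron firing and gene expression, and T-type pores open near rest. Alpha2delta and intracellular beta subunits bring the pores to the membrane, and most gamma subunits are AMPA receptor auxiliary proteins. In the dorsal horn, opioid receptors inhibit N-type channels through G proteins, and the alpha2delta subunits of Cacna2d1 and Cacna2d2 bind the gabapentinoids.

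Depth was estimated from the steps of low FPKM values (fragments per kilobase of transcript for each 1000000 mapped fragments). It came to 21.1, 25.4 and 21.1 times 1000000 fragments in saline 1, 2 and 3. In morphine 1, 2 and 3 it came to 19.6, 17.6 and 18.3 times 1000000 fragments. Every morphine library was thus estimated to be shallower than every saline library. The part of depth in the values below was not tested. Summed oligodendrocyte markers (8 genes) were at 20561, 21635 and 14770 FPKM in saline 1, 2 and 3. In morphine 1, 2 and 3 they were at 18428, 23081 and 16987 FPKM. They were thus lowest in saline 3 and highest in morphine 2, and their part in the values below was not tested. Motor and cholinergic neuron markers differed within each group: the 9 listed genes summed to 331.8, 347 and 149.4 FPKM in saline 1, 2 and 3 and to 196.8, 338.8 and 139.3 FPKM in morphine 1, 2 and 3. Saline 3, morphine 1 and morphine 3 thus had low sums, and both groups held libraries of either kind. In bulk tissue, fewer cells of a type and less RNA per cell cannot be told apart.

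After morphine, 0 of the 31 subunit genes that could be tested passed limma's test (adjusted p under 0.05 over 14614 genes), where 1.51% of all tested genes passed. On the scale of log2(FPKM + 1), the median log2 fold change was -0.02 for the 31 genes and -0.02 for all tested genes. At an unadjusted p under 0.05 there were 5 subunit genes, all lower after morphine: Scn1a, Scn4b, Cacnb2, Cacna2d2 and Cacna2d4. Among all tested genes 11.1% were lower and 11.2% higher at that level. The 3 morphine values lay wholly below the 3 saline values in 5 subunit genes (Scn1a, Scn4b, Cacnb2, Cacna2d4 and Cacng8) and wholly above them in 0, where 15.7% and 13.0% of all tested genes did so. The count of lower genes without overlap was therefore close to the background. Tested genes had to reach 1 FPKM in 3 or more of the 6 libraries, and 10 of the 41 subunit genes stayed under that level.

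**Figure D1:**
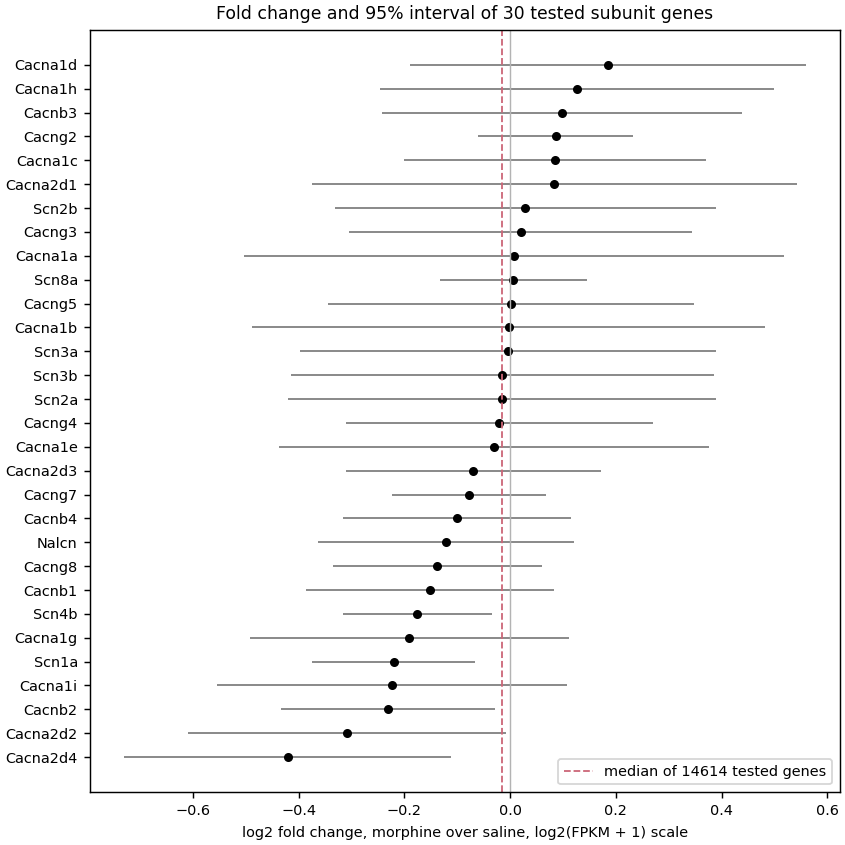
Log2 fold change of morphine over saline (x axis, log2(FPKM + 1) scale) for 30 tested subunit genes (y axis). Points are estimates, bars are 95% intervals, and the dashed line is the median of all tested genes. Intervals of 5 genes, from Cacna2d4 at -0.42 to Scn4b at -0.18, lie below 0, and 0 genes passed after adjustment.

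Scn1a, the pore subunit on which many inhibitory interneurons depend, was the most abundant sodium channel pore transcript of the cord. It measured 46.7, 45.8 and 52.1 FPKM in saline 1, 2 and 3 and 41.6, 40.6 and 41.3 FPKM in morphine 1, 2 and 3. The morphine values were tight and all sat below the lowest saline value. The means were 48.2 ± 3.40 and 41.2 ± 0.50 FPKM (SD, n = 3 each), a log2 fold change of -0.22 (SE 0.07, limma adjusted p = 0.111). Scn4b, the beta subunit linked to resurgent current, measured 87.9, 78.3 and 84.2 FPKM with saline and 72.2, 75.0 and 73.9 with morphine. Again every morphine value was below every saline value (log2 fold change -0.18, SE 0.06, limma adjusted p = 0.150). Both genes lie in long clusters of relatives: Scn1a on chromosome 2 (66270778 to 66440840, minus strand, mm10), and Scn4b on chromosome 9 (45138395 to 45154152, plus strand), just downstream of Scn2b.

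The values of these 2 genes moved with the scaling between libraries. The morphine columns of the table sum to more FPKM than the saline columns, and rescaling each column to 1000000 (TPM) shifted the median of all tested genes from -0.02 to -0.13. On that scale Scn1a fell (log2 fold change -0.35, limma adjusted p = 0.0406) and so did Scn4b (-0.30, adjusted p = 0.0441), beside 5.84% of all tested genes that were called lower. Quantile normalization gave -0.26 for Scn1a (adjusted p = 0.0889) and -0.23 for Scn4b (adjusted p = 0.0942). With the mean level of the motor neuron markers as a covariate, Scn1a alone of the subunit genes passed (-0.25, limma adjusted p = 0.0488), and 6.19% of all tested genes passed. Fold changes in these libraries became more negative with exonic length (a rank correlation, Spearman's rho, of -0.310 over 14588 genes that are no replicates of one another), and the tested subunit genes have a median exonic length of 9478 nt against 4170 nt for all tested genes. With the length trend removed, Scn1a stood at -0.14 (adjusted p = 0.240) and Scn4b at -0.14 (adjusted p = 0.274).

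Sequence just upstream of a RefSeq transcript start is shown for Scn1a, Scn4b and Cacnb2. These are the well-expressed subunit genes with the smallest p among those whose groups did not overlap. Cacna2d4, at 2.08 FPKM or less, did not overlap either and had a smaller p than Scn4b and Cacnb2. No window was found for it. The series title names EZH2, the enzyme of a Polycomb complex known to gather at promoters rich in the dinucleotide CG. The 250 bases are from RefSeq on GRCm38.p6, the assembly of mm10, at chr2:66440838-66441087 (minus strand), chr9:45138374-45138623 (plus strand) and chr2:14604056-14604305 (plus strand), written 5′ to 3′ with each CG in capitals. The RefSeq starts differ from the GENCODE gene ends used for the coordinates elsewhere: 3 bases of the Scn1a window, 229 of the Scn4b window and all 250 of the Cacnb2 window lie inside the GENCODE gene.
Scn1a: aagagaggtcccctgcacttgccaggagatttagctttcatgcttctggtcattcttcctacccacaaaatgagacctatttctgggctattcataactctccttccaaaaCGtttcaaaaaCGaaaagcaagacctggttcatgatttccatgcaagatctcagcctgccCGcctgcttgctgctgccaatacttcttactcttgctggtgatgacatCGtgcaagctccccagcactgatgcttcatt
Scn4b: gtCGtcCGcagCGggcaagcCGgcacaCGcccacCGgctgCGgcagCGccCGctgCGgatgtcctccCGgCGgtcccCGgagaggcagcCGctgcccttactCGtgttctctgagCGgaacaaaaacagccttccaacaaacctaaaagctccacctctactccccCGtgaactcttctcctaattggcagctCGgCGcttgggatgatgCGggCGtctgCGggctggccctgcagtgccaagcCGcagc
Cacnb2: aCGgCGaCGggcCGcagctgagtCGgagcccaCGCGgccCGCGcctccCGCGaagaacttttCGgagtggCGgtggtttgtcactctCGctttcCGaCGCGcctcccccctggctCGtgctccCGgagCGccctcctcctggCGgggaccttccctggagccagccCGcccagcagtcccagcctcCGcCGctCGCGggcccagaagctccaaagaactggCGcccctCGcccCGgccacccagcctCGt
Scn1a had 4 CG in this window, Scn4b had 23 and this start of Cacnb2 had 30, while a further Cacnb2 start listed at chr2:14823842-14824091 had 3. The median over all 32851 RefSeq windows was 6. The 3 genes thus differ widely in this feature. Windows were found for 31 of the 41 subunit genes (42 windows, median 8 CG, range 0 to 50). The motif GGGCGG, read on both strands, was in 35.7% of these windows and in 32.7% of all windows, and TATAAA was in 4.76% and 12.4%. These are matches of letters in a fixed window and say nothing of binding.

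Among the other sodium channel pores, Scn8a, the main pore of nodes of Ranvier and axon initial segments, was the steadiest subunit gene. It measured 30.0, 28.8 and 30.0 FPKM with saline and 31.04, 28.6 and 29.5 with morphine. Its log2 fold change was 0.01 with a 95% interval of -0.13 to 0.14, the narrowest of the 31. Scn2a, a pore of unmyelinated axons, ran from 8.18 to 12.2 FPKM in saline and from 7.65 to 10.9 FPKM in morphine. Scn3a, mostly an embryonic pore, ran from 2.30 to 2.98 and from 1.81 to 3.18 FPKM. For both of these the groups overlapped throughout, and the 95% intervals of the log2 fold change (-0.42 to 0.39 and -0.40 to 0.39) leave changes of either sign possible.

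Within a library, the division of sodium channel pore RNA does not depend on scaling between libraries. Scn1a made up 52.7%, 52.0% and 52.5% of the summed FPKM of the 10 pore genes in saline 1, 2 and 3, and 47.1%, 50.6% and 48.0% in morphine 1, 2 and 3. Scn8a made up 33.9%, 32.7% and 30.2% in saline and 35.1%, 35.7% and 34.3% in morphine. Scn1a over Scn8a gave ratios of 1.56, 1.59 and 1.74 with saline and 1.34, 1.42 and 1.40 with morphine, so its groups did not overlap. Scn4b made up 18.4% ± 1.05 of the beta subunit FPKM with saline and 15.8% ± 1.54 with morphine (SD, n = 3 each). A share shows that members differed unequally, not which of them changed. Of 30 such shares of tested genes within their families, 8 had groups that did not overlap, 5 lower and 3 higher after morphine. By FPKM, 15.7% of all tested genes were lower without overlap and 13.0% higher. Shares within a family depend on one another, and none were computed for other genes. The shares named or drawn were singled out after their values were seen and carry no test.

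**Figure D2:**
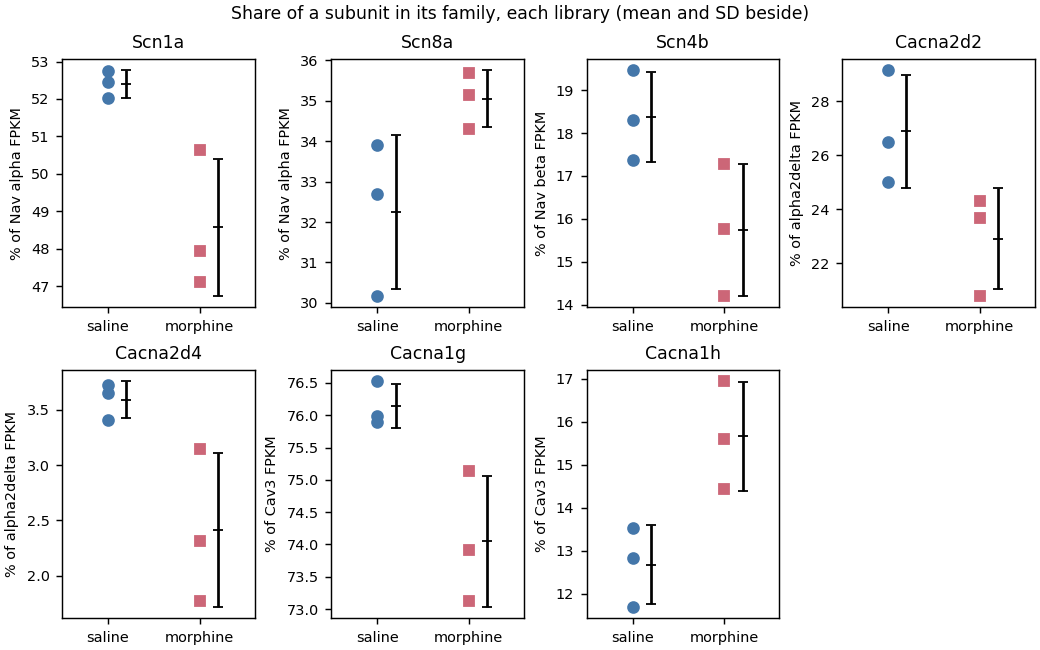
Share of the summed FPKM of its family (y axes, percent, not starting at 0) for 7 genes whose shares did not overlap between groups. Circles are saline libraries, squares are morphine libraries, and bars beside them are mean and SD. Scn1a, Scn4b, Cacna2d2, Cacna2d4 and Cacna1g sit lower after morphine and Scn8a and Cacna1h higher.

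Other sodium channel beta subunits overlapped between groups. Scn2b, a disulphide-linked beta subunit, measured 44.8, 46.9 and 55.7 FPKM with saline and 53.0, 39.6 and 59.2 with morphine, and Scn3b stood at 11.3 ± 2.09 and 11.2 ± 2.28 FPKM (SD, n = 3 each). The order Scn4b, Scn2b, Scn3b held in every saline library without overlap between neighbours, and it held in every morphine library too. Among the pores Scn1a, Scn8a, Scn2a and Scn3a kept their order in the same way.

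Sodium channel pores of sensory neurons and muscle were near 0. Scn10a and Scn11a, pores of nociceptors in the dorsal root ganglion, reached at most 0.02 FPKM, which is about 3 fragments or fewer per library. Of 9 markers of ganglion neurons, 3 (Trpm8, Prdm12 and Mrgprd) were under 0.1 FPKM in every library and Trpv1 was at 0.24 FPKM or less. The 9 summed to 6.37 to 8.67 FPKM with saline and 5.26 to 10.5 with morphine, mostly from Pou4f1, which neurons of the cord also use. P2rx3, another of the 9, measured 0.67, 0.75 and 0.82 FPKM with saline and 0.63, 0.31 and 0.54 with morphine, without overlap and under the level set for testing. Scn9a, another nociceptor pore, was measurable at 0.45, 0.74 and 0.68 FPKM with saline and 0.55, 0.42 and 0.59 with morphine, or about 71 to 181 fragments. Scn7a, a sodium sensor of glia and Schwann cells, measured 0.65, 0.69 and 1.14 FPKM with saline and 0.78, 0.82 and 0.86 with morphine. The 5 Schwann cell markers summed to 130 to 286.4 FPKM with saline and 52.6 to 272.9 with morphine, lowest in morphine 3, where Scn7a was at 0.86. Scn4a, the skeletal muscle pore, was listed at 0.01 FPKM or less. With no filter the log2 fold changes of these 5 genes lay between -0.09 (Scn9a) and 0.00 (Scn7a), and 0 of them had an unadjusted p under 0.05.

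Chromosome 2 shows how unlike neighbours in the genome can be. Scn3a (65457118 to 65567627), Scn2a (65620771 to 65767447), Scn1a, Scn9a (66480080 to 66634962) and Scn7a (66673425 to 66784914) follow one another there, and their saline means were 2.60, 9.88, 48.2, 0.62 and 0.83 FPKM. Scn9a shares 180 nt of exon with the antisense gene Gm13629, and 11 subunit genes in all share exonic sequence with another gene, 10 of them only with genes on the opposite strand. The sources used here do not state whether counting used strand, so such values may include partner RNA.

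**Figure D3:**
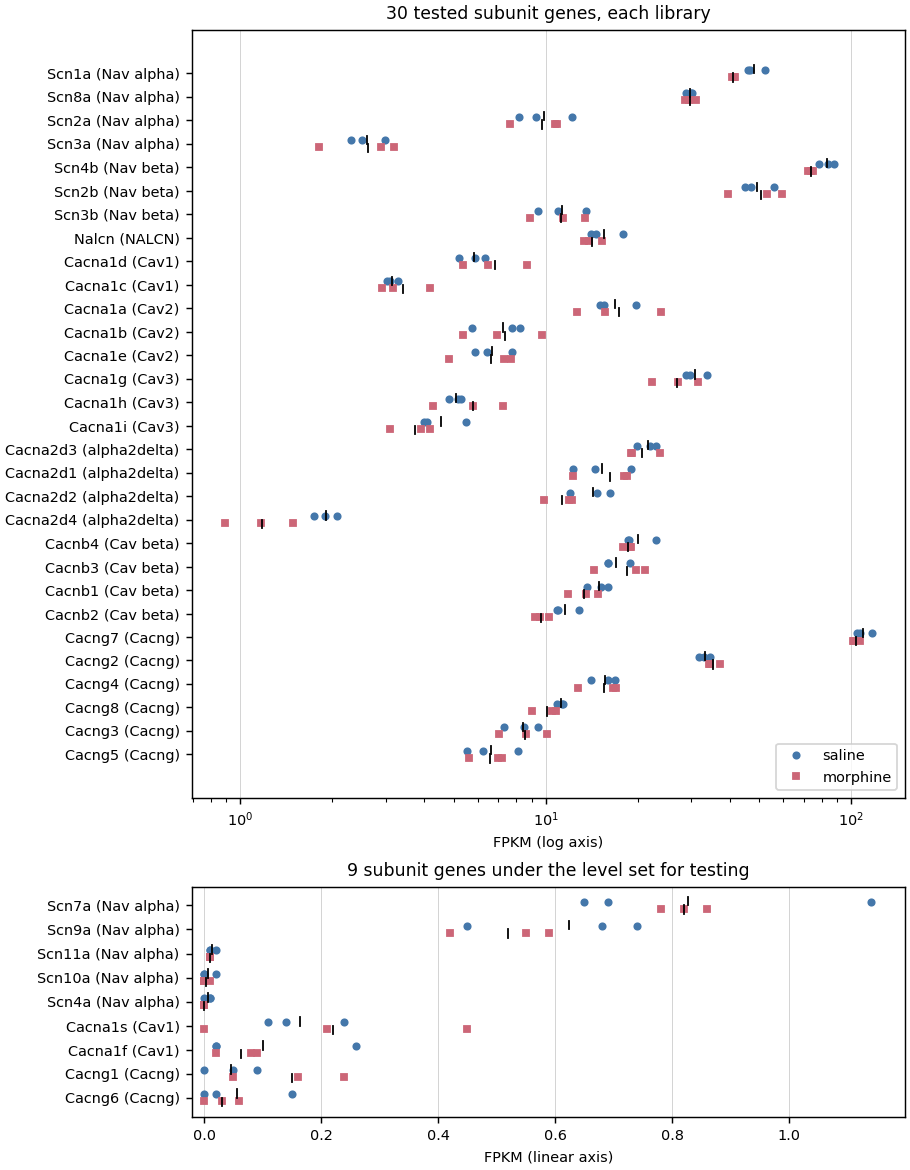
FPKM of subunit genes in every library, ordered by family and level, with 30 tested genes on a log axis above and 9 low genes on a linear axis below. Circles are saline, squares are morphine and ticks are means. Cacng7 stands highest of the genes drawn at 101.3 to 117.1 FPKM, and Scn10a, Scn11a and Scn4a lie at 0.02 FPKM or less.

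Nalcn, which carries the resting sodium leak, measured 14.1, 14.7 and 17.9 FPKM with saline and 13.8, 13.4 and 15.3 with morphine (log2 fold change -0.12, SE 0.10, limma adjusted p = 0.527). The groups overlapped. Unc80, the large scaffold of the leak channel complex, measured 23.2, 24.2 and 28.2 FPKM with saline and 18.4, 18.4 and 18.6 with morphine. It had the smallest p of the 29 listed channel partners and did not overlap between groups, yet did not pass (log2 fold change -0.43, SE 0.08, limma adjusted p = 0.0542). Fam155a, which joins the same complex, ran from 28.7 to 31.6 FPKM and from 27.9 to 34.3 FPKM. Unc79, a further partner in that complex, measured 3.38, 3.95 and 4.73 FPKM with saline and 3.80, 2.82 and 3.55 with morphine. Its groups overlapped (log2 fold change -0.19, limma adjusted p = 0.447). Nalcn and Unc80 therefore had unequal fold changes, with Unc79 nearer to Nalcn. Unc80 was named for its small p, and no difference between these genes was tested.

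Release-type calcium channel pores were led by Cacna1a, the P/Q-type pore. It measured 15.1, 15.6 and 19.8 FPKM in saline 1, 2 and 3 and 23.8, 12.6 and 15.7 FPKM in morphine 1, 2 and 3, so the morphine values held both the highest and the lowest. Cacna1b, the N-type pore, measured 5.75, 7.73 and 8.24 FPKM with saline and 9.76, 5.36 and 6.91 with morphine, with the same extremes. Cacna1e, the R-type pore, measured 5.85, 6.44 and 7.78 FPKM with saline and 7.70, 4.81 and 7.31 with morphine. Their log2 fold changes were 0.01, 0.00 and -0.03, with standard errors of 0.22, 0.21 and 0.17 (limma adjusted p of 0.988, 0.995 and 0.933). These are among the widest errors of the set: for Cacna1b the 95% interval ran from -0.49 to 0.48. Per library, the share of Cacna1a in the summed FPKM of the 3 pores was steadier than its level, at 54.7% ± 2.15 with saline and 55.2% ± 2.61 with morphine (SD, n = 3).

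Cacna1d and Cacna1c, the L-type pores that could be tested, were highest in morphine 1. Cacna1d, the L-type pore that opens at lower voltages, measured 5.22, 6.34 and 5.86 FPKM with saline and 8.71, 5.35 and 6.46 with morphine (log2 fold change 0.18, limma adjusted p = 0.532). Cacna1c measured 3.03, 3.29 and 3.10 FPKM with saline and 4.17, 2.92 and 3.17 with morphine. Without morphine 1 the log2 fold change of Cacna1c was -0.03. Cacna1d shares 589 nt of exon with Chdh on the opposite strand. Cacna1f, the retinal pore, and Cacna1s, the skeletal muscle pore, stayed at 0.45 FPKM or less, and the 6 muscle markers summed to 0.75 to 2.65 FPKM with saline and 1.74 to 2.42 with morphine, led by Acta1, which ran from 0.57 to 1.63 FPKM over the 6 libraries. Tnnt3 ran from 0.12 to 1.04 FPKM, and Myh1, Myh4, Ttn and Ckm were at 0.30 FPKM or less.

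T-type pores were dominated by Cacna1g, at 76.1% ± 0.34 of their summed FPKM with saline and 74.1% ± 1.01 with morphine (SD, n = 3). It measured 28.9, 29.6 and 33.6 FPKM with saline and 31.6, 22.2 and 27.1 with morphine (log2 fold change -0.19, limma adjusted p = 0.421). Cacna1h, the T-type pore of nociceptive pathways, measured 4.84, 5.27 and 5.18 FPKM with saline and 7.25, 4.27 and 5.77 with morphine, again with morphine 1 highest and morphine 2 lowest. Cacna1i measured 4.01, 4.09 and 5.49 FPKM with saline and 3.91, 3.09 and 4.18 with morphine (log2 fold change -0.22, adjusted p = 0.391).

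Alpha2delta subunits held both of the largest negative fold changes. Cacna2d4, best known from retina, measured 1.75, 2.08 and 1.89 FPKM with saline and 1.17, 1.49 and 0.89 with morphine, or about 207 to 296 and 91 to 147 fragments. Every morphine value was below every saline value (log2 fold change -0.42, SE 0.13, limma adjusted p = 0.124). Cacna2d2, a gabapentinoid-binding subunit, measured 12.0, 16.3 and 14.7 FPKM with saline and 12.0, 9.84 and 12.2 with morphine. Its groups touched, since saline 1 lay among the morphine values (log2 fold change -0.31, SE 0.13, adjusted p = 0.213). Cacna2d1, the gabapentinoid target that increases after nerve injury, measured 12.2, 14.5 and 19.0 FPKM with saline and 18.4, 12.3 and 18.0 with morphine. The spread within each group was wider than the difference between them (log2 fold change 0.08, 95% interval -0.38 to 0.54). Cacna2d3 was the most abundant of the 4 on average and ran the other way across libraries, at 22.0, 22.9 and 19.9 FPKM with saline and 19.0, 23.7 and 19.1 with morphine.

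Of the intracellular beta subunits, Cacnb2 was the 1 without overlap. It measured 10.9, 10.9 and 12.8 FPKM with saline and 9.22, 10.2 and 9.59 with morphine (log2 fold change -0.23, SE 0.09, limma adjusted p = 0.179). Its exons share 618, 239 and 111 nt with the opposite-strand genes Gm10849, Gm13269 and Gm10848. Cacnb4, the most abundant, measured 18.8, 18.6 and 22.9 FPKM with saline and 17.9, 19.0 and 18.8 with morphine. Cacnb3, a partner of N-type pores, measured 16.0, 16.0 and 18.9 FPKM with saline and 19.8, 14.4 and 21.1 with morphine, and Cacnb1 stood at 14.96 ± 1.18 and 13.4 ± 1.505 FPKM (SD, n = 3 each). The 95% intervals of these 3 included 0.

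Gamma subunits of the AMPA receptor type were well expressed. Cacng7 measured 104.5, 106.5 and 117.1 FPKM with saline and 102.0, 101.3 and 107.2 with morphine. Cacng2, known as stargazin, measured 34.4, 33.1 and 31.8 FPKM with saline and 37.1, 34.4 and 34.1 with morphine, a log2 fold change of 0.09 that was -0.04 after rescaling to TPM. Cacng8 measured 11.4, 10.9 and 11.3 FPKM with saline and 10.5, 9.01 and 10.8 with morphine, with groups that just failed to overlap (log2 fold change -0.14, limma adjusted p = 0.376). Cacng4, Cacng3 and Cacng5 had means of 15.6, 8.42 and 6.62 FPKM with saline and 15.5, 8.59 and 6.59 with morphine, with log2 fold changes between -0.02 and 0.02. Cacng1, the skeletal muscle gamma subunit, and Cacng6 were at 0.24 FPKM or less.

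The libraries of 1 group differed from each other in a way that recurred across the channel genes. Saline 3 was the highest saline library for 21 of the 31 tested genes (67.7%) and saline 1 the lowest for 23 (74.2%). Among all tested genes those shares were 46.6% and 36.2%. Morphine 2 was the lowest morphine library for 25 of the 31 (80.6%), against 43.5% of all tested genes. Some general neuronal markers had the same extremes. Syt1, Rbfox3, Snap25, Eno2, Syp and Elavl4 were highest in saline 3 and lowest in morphine 2 of their groups. Nefl, Nefm, Nefh and Tubb3 ran the other way, and Map2, Elavl3 and Stmn2 had neither order in full. The part of these markers was not tested. The order by motor neuron markers matched the order of the channel genes in part. Morphine 2 had the highest marker sum of its group. Saline 2 had the highest of the saline libraries, yet it was lowest for 6 subunit genes (19.4%) against 23 for saline 1. Morphine 3 had the lowest sum of its group, while morphine 1 was highest for 48.4% of the subunit genes and morphine 3 for 35.5%. Cacna2d3, Scn4b, Cacnb4 and Cacng2 were lowest in neither saline 1 nor morphine 2. Leaving morphine 2 out raised the calls among all genes from 220 to 805 and left 0 subunit genes called, while the median of the 31 moved to 0.10. Leaving out saline 1 moved that median to -0.11 and leaving out saline 3 moved it to 0.06. The part of the motor neuron markers in these values was not tested beyond the covariate fit.

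**Figure D4:**
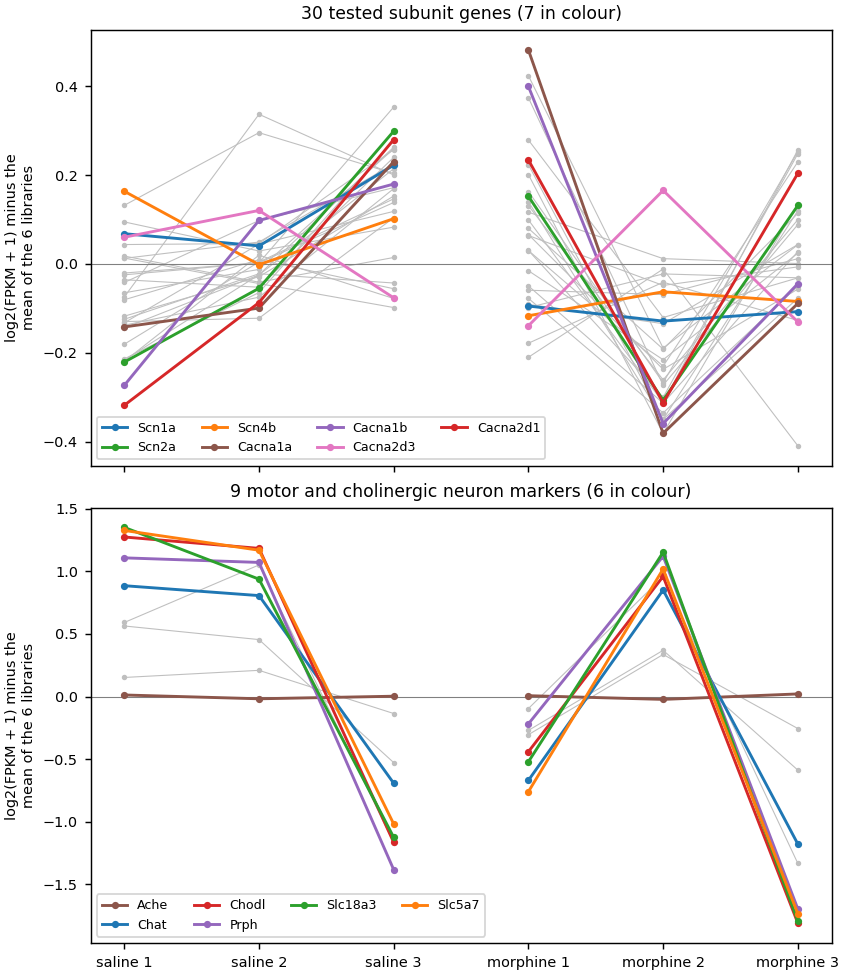
Deviation of log2(FPKM + 1) from the mean of the 6 libraries (y axis) for 30 tested subunit genes (top) and the 9 motor and cholinergic neuron markers (bottom) in each library (x axis). Lines join the values of 1 gene within a group, and libraries have no order. Saline 1 and morphine 2 are low for most channel genes and high for most of the markers, saline 2 is high for most of the markers too, and Ache stays level.

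With the motor neuron markers as a covariate, 10 of the 31 subunit genes had an unadjusted p under 0.05, all with negative log2 fold changes, where 15.3% of all tested genes were lower at that level in the same fit. The median of the 31 was -0.11, against -0.02 for all tested genes. Besides the 5 genes above these were Nalcn (-0.19), Cacna1g (-0.26), Cacna1i (-0.33), Cacng8 (-0.18) and Cacng7 (-0.11). Of these 10 genes Scn1a passed after adjustment, and Cacna1i came next (limma adjusted p = 0.0586). The covariate was measured in the same libraries and leaves 3 residual degrees of freedom.

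Genes whose products bind or anchor these channels were listed as partners. Of 29 listed partners 28 were in the table, 27 were tested and 0 passed limma's test, with 3 higher and 6 lower at an unadjusted p under 0.05, beside 11.2% and 11.1% of all tested genes. The median log2 fold change of the 27 was -0.13, against -0.02 for all tested genes, and no difference between these lists was tested. Dpysl2, a cytosolic partner of N-type channels, measured 89.0, 88.6 and 83.1 FPKM with saline and 121.9, 99.0 and 111.9 with morphine (log2 fold change 0.34, SE 0.08, limma adjusted p = 0.0750). Every morphine value lay above every saline value. Cabp1 and Calm2 were also higher without overlap at an unadjusted p under 0.05. Their log2 fold changes were 0.25 and 0.15 (limma adjusted p of 0.0846 and 0.204). Rims1 and Rims2, active zone scaffolds that tether release-type pores, and Ank3, the anchor of sodium channels at the initial segment, were picked out after their values were seen. Rims1 measured 17.9 ± 1.53 and 13.8 ± 1.14 FPKM, Rims2 5.29 ± 0.53 and 3.79 ± 0.34 FPKM, and Ank3 92.2 ± 0.42 and 81.2 ± 4.70 FPKM (SD, n = 3 each; limma adjusted p of 0.0791, 0.0819 and 0.128). Rescaled to TPM, these 3 and Unc80 passed as lower, where 5.84% of all tested genes did.

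Cell type markers were read in the same fit. In 12 lists of markers (neurons, motor neurons, sensory ganglion, oligodendrocytes and their precursors, astrocytes, microglia, endothelium, mural cells, Schwann cells, skeletal muscle and meninges) 0 genes passed limma's test. At an unadjusted p under 0.05, 4 of 5 tested mural genes and 3 of 6 endothelial genes were lower after morphine, 1 of 13 neuronal genes was lower (Map2), and 0 of 8 tested motor neuron genes met that level, beside the 11.1% of all tested genes that were lower. Astrocytes had 1 higher and 2 lower of 7, oligodendrocyte precursors 1 and 1 of 6, microglia 1 higher of 7, and the other lists 0. Summed neuronal markers ran from 4932 to 5891 FPKM in saline and from 4747 to 5476 FPKM in morphine, so these ranges overlapped. That sum joins genes that ran opposite ways across libraries, such as Syt1 and Nefm. Summed mural markers ran from 48.2 to 57.4 and from 33.8 to 45.3 FPKM and did not overlap. The part of either in the values of the channel genes was not tested.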

How the data were processed

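RNA-seq of total RNA from 6 lumbar cord libraries was used, made with the KAPA stranded kit per the labels' protocols. The authors deposited FPKM values with 2 decimals for 52513 genes. Per the submitters' processing notes, the tools were RSEM, STAR, Trimmomatic and bcl2fastq 2.19.0, and the build mm10. The sources used here state no annotation release, strand setting or depth. GENCODE M21 on mm10 gave coordinates, exonic lengths and overlaps.

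The 14614 genes that reached 1 FPKM in 3 or more libraries were compared as log2(FPKM + 1), with an intensity trend, by limma 3.58.1 in R 4.3.3, two-sided, Benjamini-Hochberg adjusted over all of them, threshold 0.05. Genes under this level were read from the fit with no filter. No block or covariate was used. Members and lists were chosen with earlier results of these data known. The rule for names was all members, plus up to 2 partners with the smallest p (Unc80, Dpysl2); other names were chosen after their values were seen.

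Depth was estimated by finding the fragment total and mean fragment length (210 to 215 nt) at which low values of genes with 1 transcript lay nearest whole fragments; 74.7% to 78.6% of values were within 0.05 fragment, or within rounding where wider, against 12.7% to 16.8% for even spacing. Fragments per gene assume the longest transcript and cover counting error only.

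Simulated data for morphine against saline held 14614 genes, of which 67, 67 and 66 were changed 1.5-, 2- and 3-fold. The fit recovered 58.2%, 80.6% and 93.9% of them, with 10 false calls. Each gene was drawn independently of the others, so differences between libraries that many genes share were not simulated. Changes under 1.5-fold were not simulated either. Alternatives were another pseudocount, 2 other filters, 2 scalings, a replicate block, removal of a length trend (loess), a motor neuron covariate, no intensity trend, and leaving out each library. Python 3.11.15, pandas 2.3.3, NumPy 2.4.6, SciPy 1.17.1 and matplotlib 3.10.9 did the rest. Values of some genes are not reported here, though counts over all members include them.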

Additional observations from a re-analysis of the deposited data

How the results depend on the processing

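The call of 0 subunit genes higher held under all 15 alternatives. For subunit genes lower, 2 were called after rescaling to TPM (Scn1a and Scn4b), 1 with the motor neuron covariate (Scn1a) and 0 in the rest. Partner calls were 4 after TPM, 4 with the covariate and 0 to 2 on leaving out a library (2 without morphine 2), else 0. Calls among all genes, 220 in the main test, were 8 with no filter, 45 with a filter at 0.3 FPKM, 954 after TPM (101 higher, 853 lower), 102 after quantile normalization (47 higher, 55 lower), 30 with the length trend removed, 905 with the covariate, 36 without the intensity trend, and 1 to 805 on leaving out a library: 1 without saline 1, morphine 1 or morphine 3, 8 without saline 2, 2 without saline 3 and 805 without morphine 2. The cause of these shifts was not tested. With the replicate block 24 were called, with 0 subunit genes. Whether the numbers pair the libraries is not settled by these values. Deviations of same-numbered libraries correlated at -0.13, 0.16 and 0.29 across genes. Saline 2 and saline 3 correlated best with the morphine library of their own number, while saline 1 correlated best with morphine 2 (0.24).

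Of 30 log2 fold changes, 14 kept their sign in every alternative, among them Scn1a, Scn4b, Cacnb2, Cacna2d2 and Cacna2d4. The sign turned after TPM for Cacna1a (-0.12), Cacna1c (-0.016), Cacna2d1 (-0.038), Cacnb3 (-0.024), Cacng2 (-0.039), Cacng3 (-0.098), Cacng5 (-0.11), Scn2b (-0.098) and Scn8a (-0.12). It turned after quantile normalization for Cacna1b (0.039), Cacng4 (0.00046), Scn2a (0.013), Scn2b (-0.015), Scn3a (0.022) and Scn3b (0.012). It turned with the length trend removed for Cacna1b (0.071), Cacna1e (0.051), Cacng3 (-0.00078), Scn2a (0.065), Scn3a (0.076) and Scn3b (0.030). It turned with the covariate for Cacna1a (-0.099), Cacna2d1 (-0.068), Cacnb3 (-0.012), Cacng3 (-0.081), Cacng5 (-0.11), Scn2b (-0.095) and Scn8a (-0.0052). On leaving out a library the ranges that crossed 0 were -0.23 to 0.20 (Cacna1a), -0.20 to 0.18 (Cacna1b), -0.034 to 0.17 (Cacna1c), -0.14 to 0.15 (Cacna1e), -0.029 to 0.29 (Cacna1h), -0.055 to 0.26 (Cacna2d1), -0.0029 to 0.26 (Cacnb3), -0.090 to 0.14 (Cacng3), -0.091 to 0.11 (Cacng4), -0.11 to 0.14 (Cacng5), -0.13 to 0.13 (Scn2a), -0.092 to 0.19 (Scn2b), -0.12 to 0.17 (Scn3a), -0.14 to 0.13 (Scn3b) and -0.025 to 0.032 (Scn8a). None of these values passed the test, and directions near 0 are not settled by 3 libraries a group.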
